A study of Mus musculus with 12 samples.

Results

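The genes of the cytoplasmic ribosomal proteins were followed across 12 RNA-sequencing libraries of mouse ventral hippocampus. They were taken from the gene table as protein-coding genes whose symbols follow the nomenclature of the large subunit (Rpl and a number, Rplp0 to Rplp2) and the small subunit (Rps and a number, Rpsa). This gave 83 genes of 54532, with 51 of the large and 32 of the small subunit. The filter on low counts kept 80 of them, 48 large and 32 small, among 16915 tested genes. Rpl3l, Rpl39l and Rpl10l did not pass it.

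All mice were labelled WT, and each of the 4 groups had 3 libraries. The SSDS-shACOT12 group was exposed to SSDS with ACOT12, a thioesterase of acetyl-CoA, knocked down in the liver. The SSDS-GFP group was given AAV8 with eGFP and was exposed to SSDS, the CSDS group was exposed to CSDS, and the Control group was untreated, with no virus in its labels. In this field SSDS and CSDS usually stand for subthreshold and chronic social defeat stress, while the labels give the abbreviations alone. The column names of both virus groups carry TBG, the name of a promoter that drives expression in hepatocytes, so the vector was aimed at the liver and not at the tissue sequenced here. Virus and SSDS were given together, so their effects against Control cannot be told apart. No label says that replicates are separate animals, so a p-value here refers to the spread among these 12 libraries, which may be technical.

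A cytoplasmic ribosome is built from a small subunit, which binds the mRNA and checks each codon, and a large subunit, which joins amino acids and holds the tunnel through which the new protein leaves. Most of their proteins are made in equal numbers and are encoded by short, highly expressed genes whose mRNAs begin with a C followed by a stretch of pyrimidines. This stretch, the terminal oligopyrimidine (TOP) motif, places their translation under mTORC1 and the binding protein LARP1, and neurons also translate such mRNAs in axons and dendrites.

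Promoter windows of 30 bases, 15 on each side of the start annotated by RefSeq (GRCm38.p6), are shown for members that lie at the high, middle and low end of the comparisons below. Capitals mark the longest run of C and T in the window on the gene's strand.
Rpl35, chr2:39005117-39005146, minus strand: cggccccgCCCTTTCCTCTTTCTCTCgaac
Rpl38, chr11:114668565-114668594, plus strand: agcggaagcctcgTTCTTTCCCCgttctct
Rpl39, chrX:37085208-37085237, minus strand: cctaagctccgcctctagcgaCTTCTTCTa
Rpl10, chrX:74270801-74270830, plus strand: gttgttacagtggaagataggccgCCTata
Rpl22l1, chr3:28805493-28805522, plus strand: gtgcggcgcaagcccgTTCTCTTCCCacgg
Rps6, chr4:86857353-86857382, minus strand: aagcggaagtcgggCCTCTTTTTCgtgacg
Rps3a1, chr3:86142654-86142683, minus strand: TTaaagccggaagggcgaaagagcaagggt
Rpl7a, chr2:26910792-26910821, plus strand: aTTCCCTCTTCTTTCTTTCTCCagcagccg
Rpl4, chr9:64173372-64173401, plus strand: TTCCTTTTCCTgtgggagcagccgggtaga
In these windows the longest run was 18 bases for Rpl35, 10 for Rpl38, 8 for Rpl39, 3 for Rpl10, 10 for Rpl22l1, 10 for Rps6, 2 for Rps3a1, 21 for Rpl7a and 11 for Rpl4. Long and short runs occurred among members with high and with low fold changes over Control. RefSeq windows matched 63 of the 83 genes. A run of at least 8 C or T within 20 bases of the start was present in 30 of the 63, 47.6%, against 18.4% of 27025 genes with a window. Its share was 48.7% for the large and 45.8% for the small subunit. The motif CCGGAAG, searched on both strands of the window from 250 bases before to 50 bases after the start, was present in 26 of the 63, 41.3%, against 9.93% of all genes with a window. Rps3a1 holds it in the window shown. Its reverse complement, CTTCCGG, contains CTTCC and can overlap a C/T run.

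The 6 markers of excitatory hippocampal neurons, all above 0 in every group, summed to 6858 to 8532 CPM (counts scaled to a common library size) in SSDS-shACOT12, 6331 to 7889 CPM in SSDS-GFP, 7258 to 8216 CPM in CSDS and 7996 to 8793 CPM in Control. Library totals ran from 14656714 counts in SSDS-GFP 1 to 17694570 in CSDS 2. The share of mitochondrially encoded counts was 3.23, 9.24 and 4.31% in SSDS-shACOT12, 7.98, 8.84 and 6.65% in SSDS-GFP, 8.46, 9.1 and 8.3% in CSDS and 8.31, 6.81 and 6.31% in Control. Haemoglobin counts made up 0.0383, 0.0319 and 0.0348% of the CSDS libraries and 0.00860% to 0.0119% of the Control libraries. The 6 dentate granule cell markers summed to 263 to 555 CPM in SSDS-shACOT12, 460.3 to 502 CPM in SSDS-GFP, 392 to 499 CPM in CSDS and 609 to 692 CPM in Control. The 6 interneuron markers summed to 697 to 894 CPM in SSDS-shACOT12, 604 to 853 CPM in SSDS-GFP, 654 to 705 CPM in CSDS and 557 to 598 CPM in Control. The dentate granule cell sum was lower and the interneuron sum higher than in Control, without overlap, in each of the other 3 groups. Choroid plexus markers summed to 12.1 to 37.7 CPM in the SSDS-shACOT12, SSDS-GFP and CSDS libraries and 37.6 to 556 CPM in Control. The part of these shifts in the members' differences from Control was not tested. In bulk tissue, fewer cells of a type and less RNA per cell cannot be told apart.

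On the per-length scale, Rplp1, an acidic protein of the stalk that recruits elongation factors, had the highest level of the 83 genes, with a mean of 1357 FPKM (fragments scaled by gene length and library size) over 12 libraries. It was followed by Rps15 at 683 FPKM and Rps3a1 at 532 FPKM, both of the small subunit, and by Rpl41, the shortest protein of the ribosome, at 397 FPKM. Rpl36 (391 FPKM) and Rps21 (375 FPKM) completed the highest 3 of each subunit. The order of Rplp1 over Rps15 held without overlap in each group, whereas Rpl41 and Rpl36 overlapped in all 4.

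At the low end, Rpl3l, a copy of Rpl3 that replaces it in heart and skeletal muscle, had 19, 6 and 17 counts in SSDS-shACOT12, 8, 6 and 9 in SSDS-GFP, 7, 8 and 3 in CSDS and 6, 6 and 6 in Control. Rpl39l, a copy of Rpl39 used in the male germ line, had 0 to 8 counts per library, and Rpl10l, the germline copy of Rpl10, had 0 counts in all 12 libraries. Among tested members Rps10 averaged 1.46 FPKM, Rpl24 3.43 FPKM and Rpl13a 13 FPKM. These 3 share 20.6%, 47.0% and 35.4% of their exon bases with an overlapping gene on the same strand, RPS10-NUDT3, Gm28037 and Gm45713, each with a mean of 0 counts. Pseudogenes named after Rps10 had counts of their own equal to 1663% of its count, those of Rpl17 341% and those of Rpl21 95.4%. The rule used for reads that match several places is not given in the sources used here, so the levels of these 5 members are uncertain. Over all members, 17 of the 80 tested had pseudogene counts above 10% of their own or more than 10% of exon bases shared. Exon overlap with genes on the opposite strand was not counted, although the kit does not mark strand.

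The first question was whether the 2 subunits kept the same balance in the 4 groups. Summed over members, the large subunit made up 1.41, 1.15 and 1.43% of gene counts in SSDS-shACOT12, 1.39, 1.06 and 1.55% in SSDS-GFP, 1.24, 1.15 and 1.13% in CSDS and 1.01, 1.11 and 1.04% in Control. The small subunit made up 1.01, 0.844 and 1.03% in SSDS-shACOT12, 1.03, 0.751 and 1.12% in SSDS-GFP, 0.895, 0.802 and 0.819% in CSDS and 0.712, 0.789 and 0.744% in Control. Both sums were lower in SSDS-shACOT12 2 and SSDS-GFP 2 than in the other libraries of their groups, and the CSDS libraries lay above the Control libraries for both. SSDS-GFP overlapped Control for both sums, while the 3 SSDS-shACOT12 libraries lay above all 3 Control libraries.

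The ratio of the sums varied less than the sums. Large over small subunit counts stood at 1.39, 1.36 and 1.39 in SSDS-shACOT12, 1.35, 1.41 and 1.38 in SSDS-GFP, 1.38, 1.43 and 1.38 in CSDS and 1.42, 1.41 and 1.39 in Control. On the log2 scale the group means differed by 0.0028 for SSDS-shACOT12 minus SSDS-GFP, by -0.028 for SSDS-GFP minus Control and by -0.010 for CSDS minus Control, and the groups overlapped in all 3 comparisons. The SD of the log2 ratio within groups was 0.0256, against 0.176 for the log2 of the members' summed share. The ratio spanned 0.0856 over the 12 libraries, and the share 0.628.

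**Figure D1:**
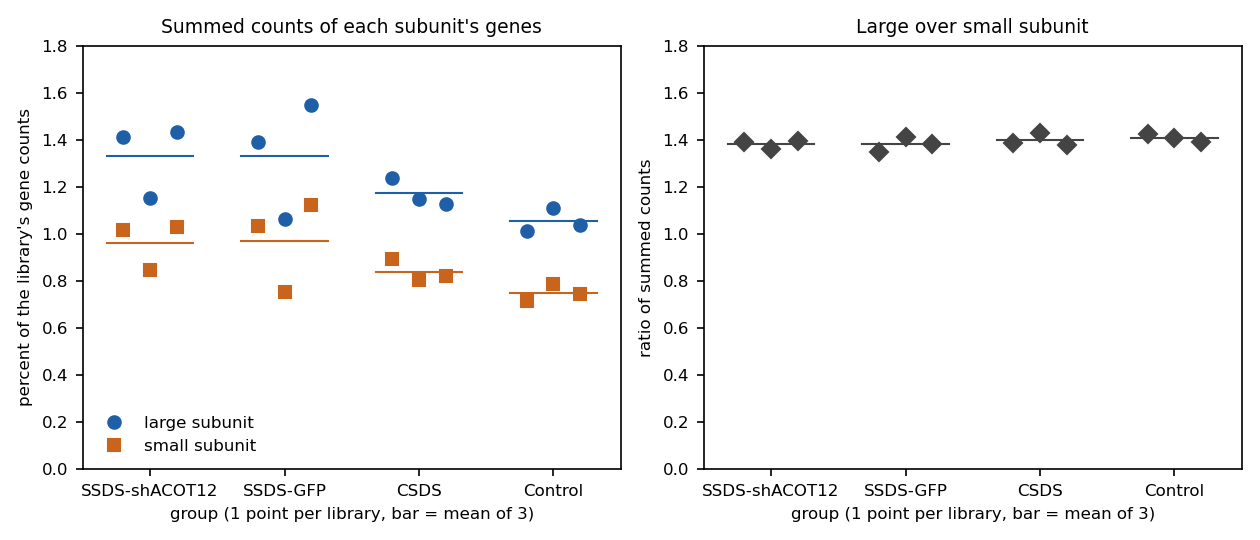
The left panel plots the summed counts of the large (circles) and small (squares) subunit genes as a percent of each library's gene counts, and the right panel the ratio of both sums, with 1 point per library and a bar at the mean of 3. Both sums were lowest in the Control group by mean, while the ratio stayed between 1.35 and 1.43 in all 12 libraries.

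Member by member, the libraries of a group did not behave alike. The median member deviated from its own mean over 12 libraries, on the log2 CPM scale, by 0.19, -0.08 and 0.31 in SSDS-shACOT12 1, 2 and 3, by 0.30, -0.14 and 0.31 in SSDS-GFP, by 0.01, -0.02 and -0.12 in CSDS and by -0.29, -0.17 and -0.22 in Control. SSDS-shACOT12 2 thus lay among the CSDS libraries. SSDS-GFP 2 lay below all CSDS libraries and above all Control libraries. Both lay apart from the other 2 of their own group. The slope of expression with gene length over the other tested genes, in log2 units per 10-fold longer gene, was -0.07, 0.05 and -0.26 in SSDS-shACOT12, -0.12, 0.07 and -0.16 in SSDS-GFP, -0.02, -0.03 and 0.07 in CSDS and 0.18, 0.08 and 0.21 in Control. The slope was negative in the 4 libraries with the highest member deviation and positive in the 3 Control libraries. The value with this trend removed is given with coding length below.

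**Figure D2:**
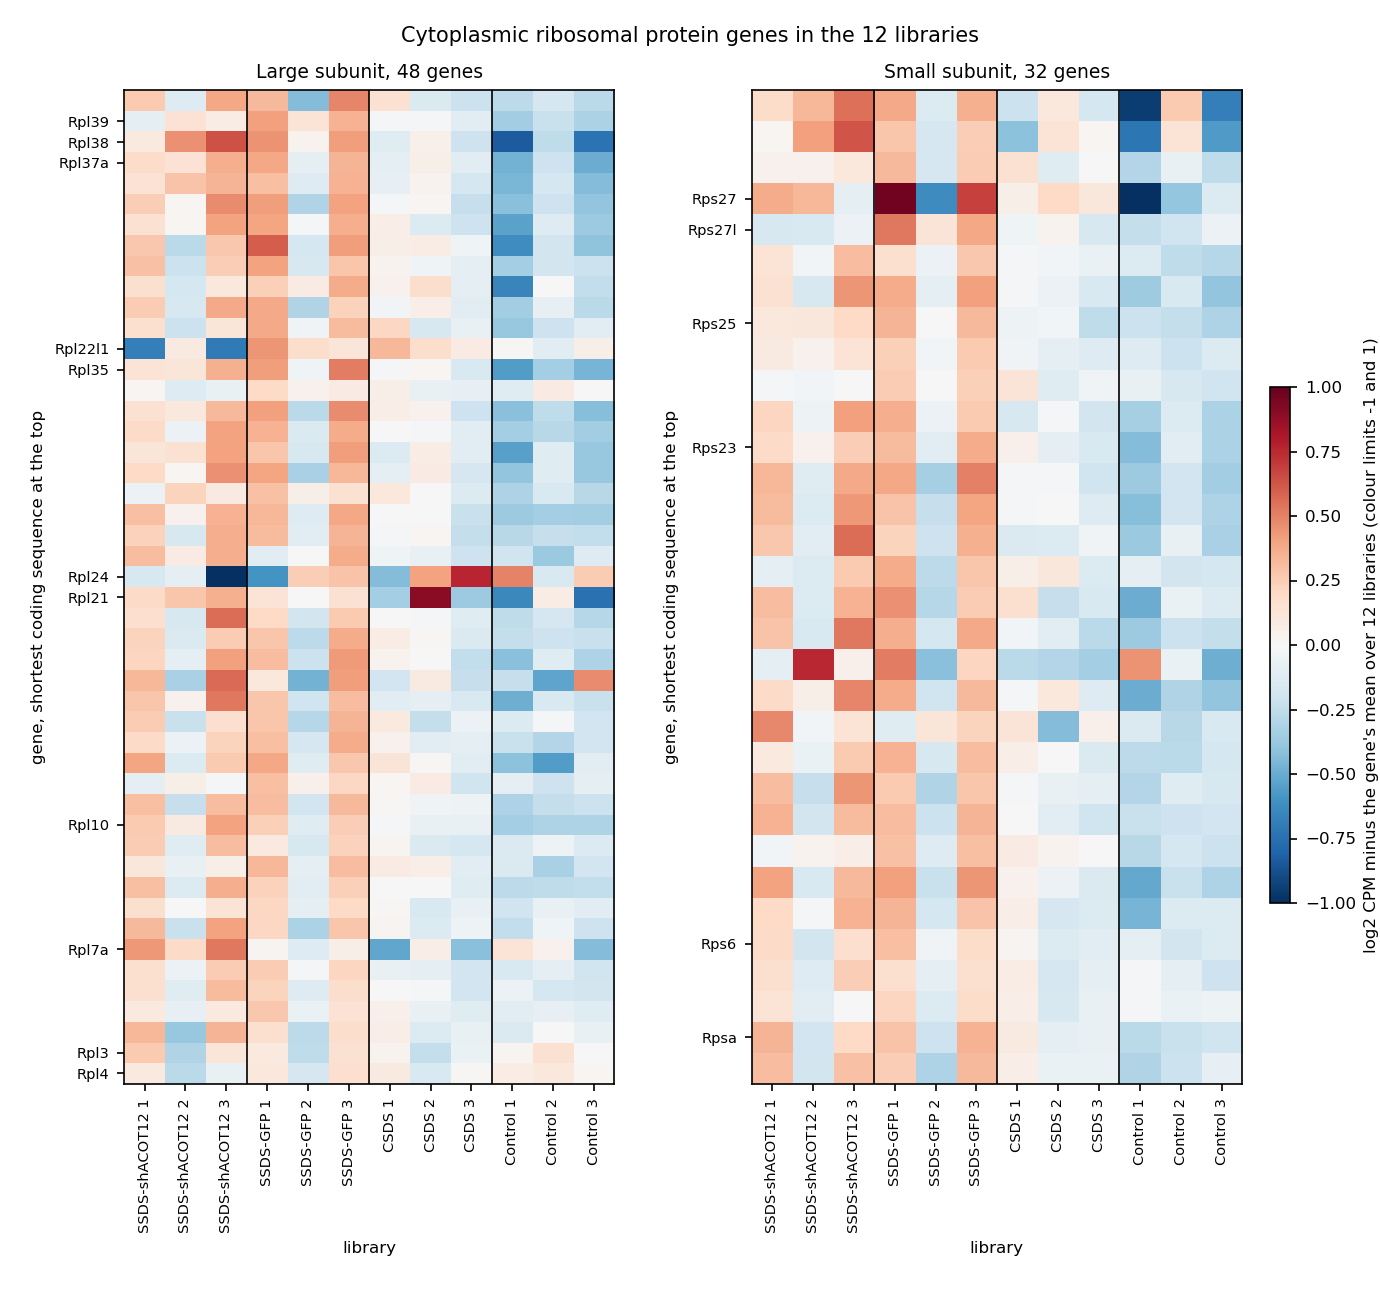
Each row is 1 of the 80 tested members (left, large subunit; right, small subunit), ordered by coding length, with names on some of the rows described in the text, each column is 1 library, and the colour is log2 CPM minus the gene's mean over 12 libraries, limited to -1 and 1. Most rows are red in SSDS-shACOT12 1 and 3 and SSDS-GFP 1 and 3 and blue in the Control libraries; Rpl22l1 is blue in SSDS-shACOT12 1 and 3.

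Between SSDS-GFP and Control, 77 of 80 members were higher by point estimate, with a median log2 fold change of 0.41 (1.33-fold), against 0.01 over all 16915 tested genes. The median was 0.42 for the 48 large and 0.40 for the 32 small subunit members. No member passed edgeR's quasi-likelihood test at a Benjamini-Hochberg adjusted p under 0.05, where 0.0946% of all genes did, and the smallest adjusted p was 0.0786. At an unadjusted p under 0.05, 53 members were higher and 0 lower, 30 of 48 large and 23 of 32 small, against 8.92% of all genes higher and 6.23% lower. The groups did not overlap for 38 members, all higher, against 12.5% of all genes higher and 11.4% lower. The DESeq2 Wald test called 18 members, with 3.12% of all genes called. With limma on log2 FPKM 0 members were called, and its share over all genes is not reported here. Without SSDS-GFP 2, edgeR called 2 members, with 0.0866% of all genes called, and with no filter on low counts 11, with 1.85% called. In the same comparison the marker sums of excitatory neurons (6331 to 7889 CPM in SSDS-GFP, 7996 to 8793 CPM in Control), dentate granule cells and endothelial cells (256 to 298 CPM in SSDS-GFP, 312 to 364 CPM in Control) lay wholly below Control and that of interneurons wholly above it, and their part in the members' difference was not tested.

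Of the large subunit, Rpl35 had the smallest p (ENSMUSG00000062997, chr2:39001580-39005624, minus strand, mm10). Its protein lies at the mouth of the exit tunnel, where factors that act on the new chain dock. Rpl35 was measured at 229.9, 167 and 246 CPM in SSDS-GFP and 117, 136 and 124 CPM in Control. All SSDS-GFP libraries lay above all Control libraries. The log2 fold change was 0.77 ± 0.15 (SE, edgeR adjusted p = 0.0786; DESeq2 adjusted p = 0.000302).

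Rpl38 (ENSMUSG00000057322, chr11:114668524-114672331, plus strand) encodes a surface protein that mouse embryos need for the translation of Hox mRNAs. The pseudogenes named after Rpl38 had counts equal to 18.3% of its own. Rpl38 was measured at 219, 165 and 215 CPM in SSDS-GFP and 90.5, 135 and 96.4 CPM in Control, with no overlap. Its log2 fold change was 0.90 ± 0.18 (edgeR adjusted p = 0.0939). Rpl39, a very short protein that lines the exit tunnel, was measured at 202, 168 and 194 CPM in SSDS-GFP and 120.2, 131 and 123 CPM in Control, again with no overlap, a log2 fold change of 0.59 ± 0.12 and an adjusted p of 0.0835. Rpl37a, which folds around a zinc ion, averaged 302 ± 53.1 CPM in SSDS-GFP and 198 ± 22.9 CPM in Control (SD, n = 3 each), with a log2 fold change of 0.61 ± 0.15.

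Of the small subunit, Rps25, which viral and some cellular internal ribosome entry sites require, was measured at 365, 289 and 359 CPM in SSDS-GFP and 248, 244 and 232 CPM in Control. The groups did not overlap, and the log2 fold change was 0.48 ± 0.12 (edgeR adjusted p = 0.127). Rps23, which lies at the decoding centre, averaged 406 ± 70.8 CPM in SSDS-GFP and 289.8 ± 34.1 CPM in Control, a log2 fold change of 0.49 ± 0.15, and its groups overlapped. Its adjusted p in edgeR was 0.156. DESeq2 gave adjusted p-values of 0.000221 for Rpl39, 0.00144 for Rpl38, 0.00846 for Rpl37a, 0.00732 for Rps25 and 0.0414 for Rps23.

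Rps27, a zinc-binding protein of the small subunit, had the highest point estimate and a wide spread, with 312, 103 and 256 CPM in SSDS-GFP and 57.2, 122 and 145 CPM in Control. SSDS-GFP 2 lay below 2 of the Control libraries, and the log2 fold change was 1.05 ± 0.36 (edgeR adjusted p = 0.198). At the other end were Rpl3 and Rpl4, 2 of the longest ribosomal proteins, which reach from the surface towards the peptidyl transferase centre and the tunnel wall. Rpl3 was measured at 706, 555 and 735 CPM in SSDS-GFP and 673, 735 and 660.1 CPM in Control, and Rpl4 at 675, 557 and 703 CPM in SSDS-GFP and 661, 674 and 634 CPM in Control. Both overlapped between groups, with log2 fold changes of -0.05 ± 0.16 and -0.02 ± 0.13. Rpl24, with the lowest estimate at -0.19 ± 0.35, had 31 to 72 counts in these libraries.

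Among members with known roles outside the ribosome, Rpl5 and Rpl11, which bind the ubiquitin ligase Mdm2 when they are free, had log2 fold changes of 0.22 ± 0.12 and 0.48 ± 0.18. Rps6, the substrate of the S6 kinases, was at 0.30 ± 0.13, Rpsa, also known as the laminin receptor precursor, at 0.39 ± 0.16, and Rps27a, made as a fusion with ubiquitin, at 0.14 ± 0.27. Rpl10, which is needed for subunit joining, was at 0.45 ± 0.13, with 342, 266 and 343 CPM in SSDS-GFP and 228, 233 and 234 CPM in Control and no overlap. The stalk proteins had log2 fold changes of 0.11 ± 0.18 for Rplp0, 0.44 ± 0.16 for Rplp1 and 0.36 ± 0.18 for Rplp2. Rps4x was at 0.18 ± 0.13, Rpl41 at 0.41 ± 0.21, and none of these 11 passed edgeR's test.

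**Figure D3:**
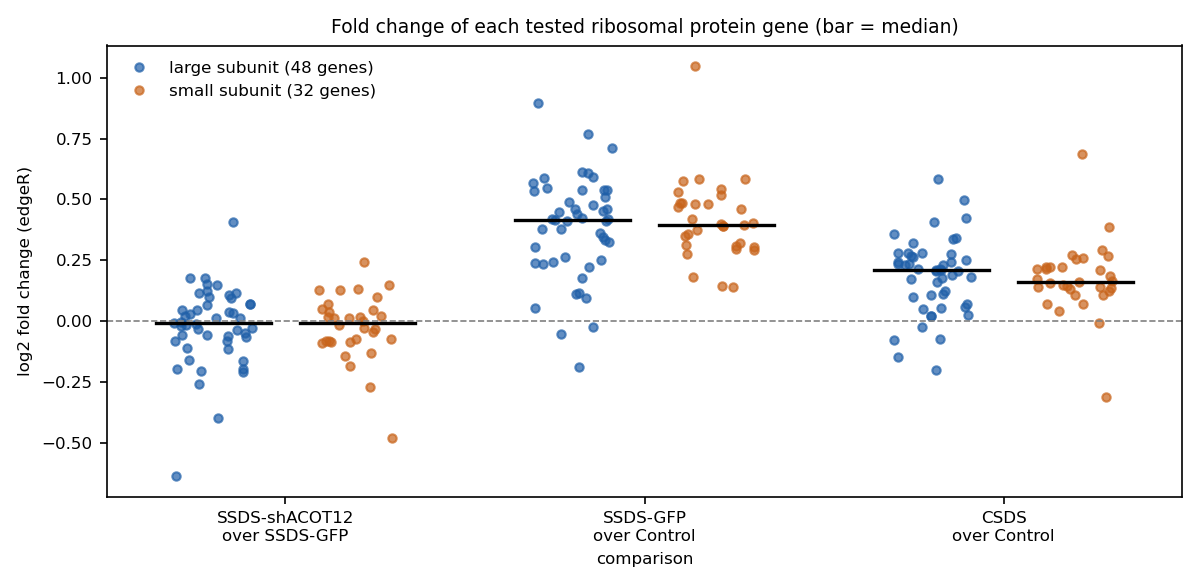
Each point is the edgeR log2 fold change of 1 tested member in 1 of the 3 comparisons, large subunit in blue and small subunit in orange, with a bar at the median. The medians of the large and small subunit were -0.01 and -0.01 for SSDS-shACOT12 over SSDS-GFP, 0.42 and 0.40 for SSDS-GFP over Control, and 0.21 and 0.16 for CSDS over Control.

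Between CSDS and Control, which uses the same 3 Control libraries, 73 of 80 members were higher by point estimate, with a median log2 fold change of 0.20 (1.15-fold) against 0.00 over all tested genes. The median was 0.21 for the large and 0.16 for the small subunit. No member passed the edgeR test and 0% of all genes did, and the smallest adjusted p of a member was 0.849. DESeq2 also called 0 members, and its share over all genes is not reported here. At an unadjusted p under 0.05, 4 members were higher and 0 lower, against 2.86% of all genes higher and 3.01% lower. The groups did not overlap for 29 members, all higher, against 10.2% of all genes higher and 10.1% lower.

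Rpl35, Rpl38 and Rpl37a were among the 4 members at an unadjusted p under 0.05. Rpl35 was measured at 171, 174 and 155 CPM in CSDS and Rpl38 at 148, 167 and 139.8 CPM, both above the Control values given above without overlap. Their log2 fold changes were 0.41 ± 0.15 and 0.50 ± 0.18. Rpl37a averaged 250.2 ± 16.2 CPM in CSDS and 198 ± 22.9 CPM in Control, at 0.34 ± 0.15. Rpl39 was at 0.25 ± 0.12, and Rps21 of the small subunit at 0.22 ± 0.14.

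Rps27 again had the highest estimate, 0.69 ± 0.36, with 166, 183 and 173 CPM in CSDS and 57.2, 122 and 145 CPM in Control. The CSDS libraries lay close together above a spread Control group. Rpl21 was measured at 68, 160.5 and 66.9 CPM in CSDS 1, 2 and 3 and 54.9, 90.7 and 51.3 CPM in Control, a log2 fold change of 0.59 ± 0.30 in which CSDS 2 stood far above the other CSDS libraries. The lowest estimates were -0.31 ± 0.27 for Rps27a and -0.20 ± 0.18 for Rpl7a, with overlapping groups, and Rpl3 was at -0.15 ± 0.16.

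Coding length went with the size of the difference among the members. In SSDS-GFP over Control, the 20 members with the shortest coding sequences (138 to 366 bases) had a median of 0.53 on the log2 scale, the next sets of 20 had 0.47 and 0.38, and the 20 longest (636 to 1257 bases) had 0.24. In CSDS over Control the medians were 0.25, 0.20, 0.17 and 0.06. Spearman's rho between coding length and log2 fold change over the 80 members was -0.62 for SSDS-GFP over Control, -0.54 for CSDS over Control and 0.19 for SSDS-shACOT12 over SSDS-GFP, as a description, since the members share their libraries. With the deposited gene length in place of coding length, rho was -0.22, -0.21 and -0.13 in the same order, and with mean log2 CPM it was -0.08, -0.11 and -0.11. The 30 tested members with a promoter C/T run and the 30 without it had medians of 0.42 and 0.41 in SSDS-GFP over Control, 0.18 and 0.21 in CSDS over Control, and -0.07 and -0.01 in SSDS-shACOT12 over SSDS-GFP.

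Other groups of genes had positive medians as well. The shortest eighth of other tested genes (2088 genes of up to 1478 bases) had medians of 0.20 in SSDS-GFP over Control and 0.13 in CSDS over Control. Mitochondrial ribosomal proteins (77 tested) had 0.32 and 0.17, and nuclear-encoded respiratory chain subunits (90 tested) 0.42 and 0.26. In SSDS-GFP over Control, 47.5% of the cytoplasmic members were higher without overlap. The share was 46.8% for mitochondrial ribosomal proteins, 61.1% for respiratory chain subunits and 19.5% for the shortest eighth. At an unadjusted edgeR p under 0.05, the shares higher were 66.25%, 42.9%, 61.1% and 17.5% in the same order. In CSDS over Control, the shares higher without overlap were 36.25%, 40.3%, 35.6% and 15.7% in this order. At an unadjusted edgeR p under 0.05 they were 5%, 3.9%, 14.4% and 6.13%. After each library's trend with gene length had been removed, the median of the ribosomal protein genes was 0.27 for SSDS-GFP over Control and 0.12 for CSDS over Control.

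**Figure D4:**
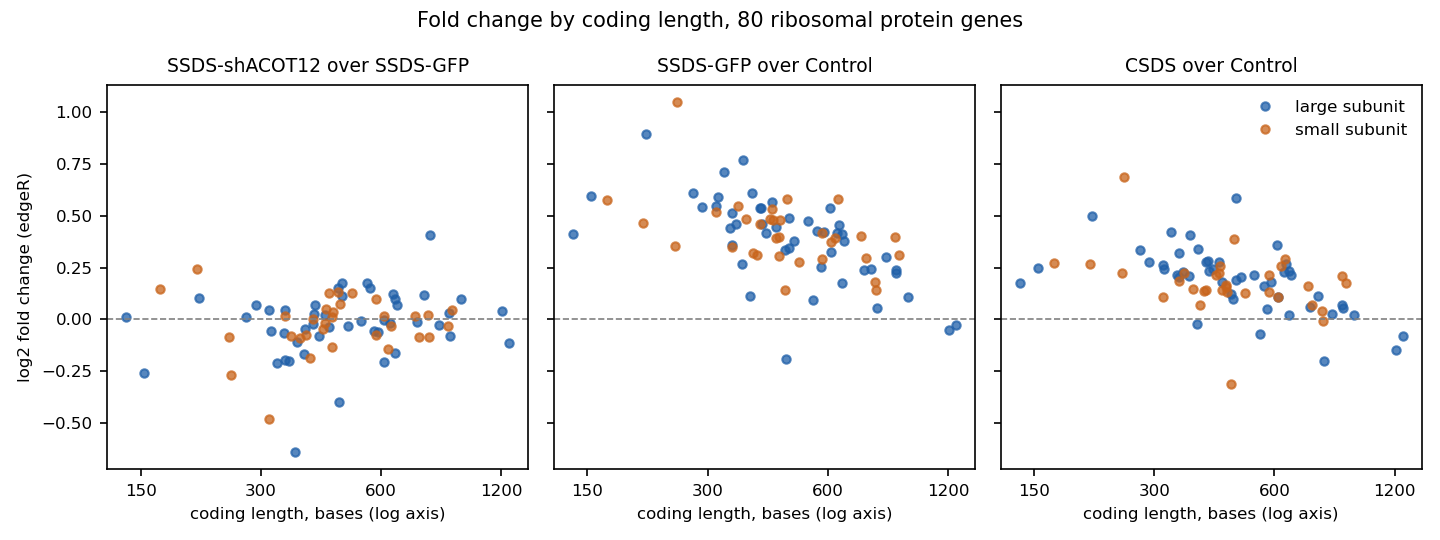
Each point is 1 of 80 tested members, with its coding length in bases on a log axis and its edgeR log2 fold change on the vertical axis, for SSDS-shACOT12 over SSDS-GFP, SSDS-GFP over Control and CSDS over Control. The points slope down with length in the comparisons with Control (rho -0.62 and -0.54), where Rpl3 and Rpl4 lie at the lower right near 0.

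Hepatic ACOT12 knockdown was compared with GFP under SSDS to ask what the knockdown adds. Here 38 members were higher and 42 lower, with a median log2 fold change of -0.01, against 0.01 over all tested genes, and the median was -0.01 for each subunit. No member and 0% of all genes passed the edgeR test (smallest adjusted p of a member 0.803). DESeq2 called 0 members, and its share over all genes is not reported here. At an unadjusted p under 0.05, 1 member was higher and 3 were lower, against 1.84% of all genes higher and 2.68% lower. The groups did not overlap for 2 higher and 4 lower of the 80 members, against 2.23% of all genes higher and 2.58% lower. The share of members higher was 2.5%, near that of all genes. The 4 lower members were a larger share than among all genes, but a small count.

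The lowest estimates were those of 2 paralogs. Rpl22l1 (ENSMUSG00000039221, chr3:28805436-28807424, plus strand) is a copy of Rpl22, which in mouse represses it. It was measured at 34.8, 59.3 and 34.1 CPM in SSDS-shACOT12 1, 2 and 3, 75.7, 63.1 and 60.6 CPM in SSDS-GFP, 70.0, 62.9 and 58.9 CPM in CSDS and 56.2, 51.7 and 58.1 CPM in Control. SSDS-shACOT12 1 and 3 lay below all 9 libraries of the other groups, whereas SSDS-shACOT12 2 lay among them. The log2 fold change of SSDS-shACOT12 over SSDS-GFP was -0.64 ± 0.19 (edgeR adjusted p = 0.803). Without SSDS-shACOT12 2 it was -0.96 with an adjusted p of 0.00679 in edgeR, a fit in which 5.7% of all genes were called.

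Rpl22 itself was measured at 164, 148 and 154 CPM in SSDS-shACOT12 and 185, 166 and 171 CPM in SSDS-GFP, a log2 fold change of -0.17 ± 0.11. Rpl22l1 CPM as a percent of Rpl22 CPM stood at 21.2, 40.1 and 22.2% in SSDS-shACOT12, 40.9, 37.9 and 35.5% in SSDS-GFP, 41.5, 40.9 and 38.6% in CSDS and 37.8, 30.1 and 35.8% in Control. The same 2 SSDS-shACOT12 libraries stood apart. They were also the ones with the lowest mitochondrial share of counts of all 12 libraries, 3.23% and 4.31%, and the part of this in the result was not tested.

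Rps27l, a p53-inducible copy of Rps27, was measured at 17.8, 17.8 and 19.1 CPM in SSDS-shACOT12, 28.7, 21.7 and 26 CPM in SSDS-GFP, 19.2, 20.3 and 17.7 CPM in CSDS and 16.8, 17.3 and 19.1 CPM in Control. All 3 SSDS-GFP libraries lay above all 9 others. The log2 fold change was -0.48 ± 0.13 for SSDS-shACOT12 over SSDS-GFP (edgeR adjusted p = 0.803), 0.52 ± 0.13 for SSDS-GFP over Control (adjusted p = 0.13; DESeq2 0.0245) and 0.11 ± 0.13 for CSDS over Control. The first 2 of these share the SSDS-GFP libraries. As a percent of Rps27 CPM it stood at 8.62, 8.86 and 12.8% in SSDS-shACOT12, 9.19, 21 and 10.2% in SSDS-GFP, 11.6, 11.1 and 10.3% in CSDS and 29.4, 14.1 and 13.2% in Control.

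The third pair kept its proportion, with Rpl7l1, a copy of Rpl7, at 13.7% to 16.2% of Rpl7 CPM over all 12 libraries. Rpl7l1 had log2 fold changes of -0.01 ± 0.12 for SSDS-shACOT12 over SSDS-GFP and 0.24 ± 0.12 for SSDS-GFP over Control, and Rpl7 of -0.03 ± 0.12 and 0.30 ± 0.12 in the same order.

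Rpl7a, a large subunit protein whose named pseudogenes had counts equal to 28.8% of its own, was the member farthest above the median. It was measured at 95.1, 80.3 and 101 CPM in SSDS-shACOT12 and 71.6, 64.2 and 73.3 CPM in SSDS-GFP, with no overlap and a log2 fold change of 0.41 ± 0.18 (edgeR adjusted p = 0.803). Rpl39 had 143, 169 and 161 CPM in SSDS-shACOT12, with SSDS-shACOT12 2 above the lowest SSDS-GFP library, and a log2 fold change of -0.26 ± 0.12. Estimates were -0.21 ± 0.12 for Rpl15, -0.18 ± 0.11 for Rps24, 0.24 ± 0.23 for Rps28 and -0.40 ± 0.36 for Rpl24. Rpl21 and Rps24 were the remaining members without overlap besides Rpl22, with Rpl21 higher at 0.18 ± 0.30 and Rps24 lower.

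**Figure D5:**
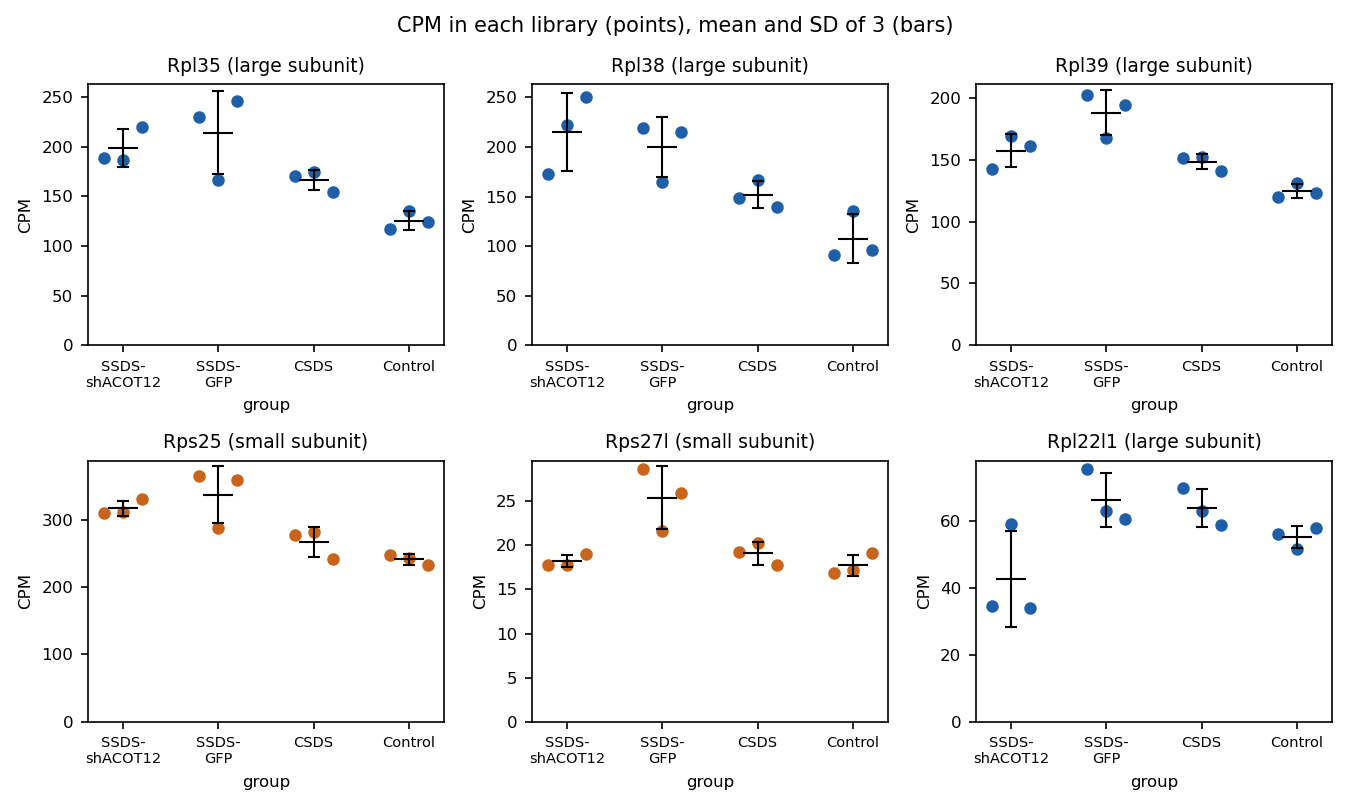
CPM of 6 members in each library (points) with the mean and SD of 3 libraries (bars), in the order SSDS-shACOT12, SSDS-GFP, CSDS and Control on each horizontal axis. Rpl35, Rpl38, Rpl39 and Rps25 were lowest by mean in Control, Rps27l was highest in SSDS-GFP, and Rpl22l1 was lowest in SSDS-shACOT12 1 and 3.

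Over all 4 groups at once, edgeR's test of any difference called 0 of 80 members, with 0.0887% of all genes called, and the smallest adjusted p was 0.165, for Rpl38. At an unadjusted p under 0.05 it found 35 members, 23 large and 12 small, against 14.4% of all genes. Without SSDS-shACOT12 2 the test called 22 members, with 12.6% of all genes called, and with no filter 14, with 4.45% called. The median fold change of SSDS-shACOT12 over Control in this fit was 0.40 on the log2 scale, 0.40 for the large and 0.39 for the small subunit, against 0.01 over all tested genes.

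Some ribosomal proteins have symbols outside the nomenclature. Fau, a fusion of a ubiquitin-like protein with a small subunit protein, was measured at 357, 267 and 351 CPM in SSDS-shACOT12, 363, 237 and 379.9 CPM in SSDS-GFP, 283, 274 and 249 CPM in CSDS and 202, 253 and 230.4 CPM in Control. It had the highest correlation with the members' mean log2 CPM over the 12 libraries among 9837 candidate genes (Pearson's r = 0.986), as a description. The next were Nudt16l1 and Arpc5l (0.98 each), Pdxp (0.975), Raly and Mrps23 (0.974 each), Atf4 (0.97) and Vti1b (0.969). The log2 fold changes of SSDS-GFP over Control were 0.52 ± 0.18 for Fau (edgeR adjusted p = 0.198) and 0.25 ± 0.16 for Rack1, a scaffold on the small subunit (edgeR adjusted p = 0.472).

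Of 36 ribosome biogenesis genes, whose products make and assemble ribosomes, 29 were higher and 7 lower in SSDS-GFP than in Control, with a median log2 fold change of 0.10. Of the 36, 5 were higher and 0 lower at an unadjusted p under 0.05, against 8.92% of all genes higher and 6.23% lower. Nop10, a protein of the box H/ACA particles that guide pseudouridylation of rRNA, averaged 55.1 ± 5.42 CPM in SSDS-GFP and 38.4 ± 3.88 CPM in Control, a log2 fold change of 0.52 ± 0.13 (edgeR adjusted p = 0.127). Sbds, which helps release Eif6 from the large subunit, was at 0.47 ± 0.14, and Wdr12, a large-subunit assembly factor, at 0.34 ± 0.11. In CSDS against Control 18 were higher and 18 lower (median 0.00), with Nop10 at 0.29 ± 0.13. In SSDS-shACOT12 against SSDS-GFP 19 were higher and 17 lower (median 0.01), with the assembly factor Rpf2 at -0.39 ± 0.16 and Nop58, a core protein of methylation-guiding particles, at -0.39 ± 0.18. No gene of the list passed edgeR's test in these comparisons. At an unadjusted p under 0.05, 2 were higher and 0 lower in CSDS than in Control, against 2.86% of all genes higher and 3.01% lower. In SSDS-shACOT12 against SSDS-GFP, 0 were higher and 2 lower, against 1.84% of all genes higher and 2.68% lower.

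Of 16 translation factors and other genes with TOP mRNAs, 11 were higher and 5 lower in SSDS-GFP than in Control (median 0.11). The nascent-chain factor Naca averaged 230.3 ± 19.8 CPM in SSDS-GFP and 166 ± 15.2 CPM in Control, a log2 fold change of 0.47 ± 0.12 (edgeR adjusted p = 0.13). Tpt1 was at 0.45 ± 0.18 and the elongation factor subunit Eef1b2 at 0.35 ± 0.13. In CSDS against Control 9 were higher and 7 lower (median 0.08), with the initiation factor Eif4b at -0.26 ± 0.11, and in SSDS-shACOT12 against SSDS-GFP 9 were higher and 7 lower (median 0.00), with Eif3e at -0.35 ± 0.14. No gene of this list passed edgeR's test. At an unadjusted p under 0.05, 4 were higher in SSDS-GFP than in Control, 1 was lower in CSDS than in Control and 1 was lower in SSDS-shACOT12 than in SSDS-GFP. The shares of all genes were 8.92%, 3.01% and 2.68% in the same order.

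Of 25 genes of mTORC1, LARP1 and their regulators, 13 were higher and 12 lower in SSDS-GFP than in Control (median 0.00), 10 higher and 15 lower in CSDS than in Control (median -0.08), and 16 higher and 9 lower in SSDS-shACOT12 than in SSDS-GFP (median 0.07). Ddit4l, an inhibitor of mTORC1, was measured at 10.3, 12.4 and 16.8 CPM in SSDS-GFP, 15.8, 10.9 and 19.7 CPM in CSDS and 8.89, 6.29 and 6.13 CPM in Control, with no overlap with Control in either. Its log2 fold changes were 0.89 ± 0.25 for SSDS-GFP over Control (edgeR adjusted p = 0.142) and 1.12 ± 0.25 for CSDS over Control (adjusted p = 0.849). Sesn1, a sensor that restrains mTORC1, was at -0.47 ± 0.15 for CSDS over Control and -0.33 ± 0.16 for SSDS-shACOT12 over SSDS-GFP. None of the 25 passed edgeR's test. At an unadjusted p under 0.05, 1 was higher in SSDS-GFP than in Control, 1 was higher and 2 were lower in CSDS than in Control, and 0 differed between SSDS-shACOT12 and SSDS-GFP. Of all genes, 8.92% were higher in SSDS-GFP than in Control, and 2.86% higher and 3.01% lower in CSDS than in Control. Between SSDS-shACOT12 and SSDS-GFP, 1.84% of all genes were higher and 2.68% lower.

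Of 8 genes of the Mdm2 and p53 pathway that senses free ribosomal proteins, 3 were higher and 5 lower in SSDS-GFP than in Control, 4 higher and 4 lower in CSDS than in Control, and 2 higher and 6 lower in SSDS-shACOT12 than in SSDS-GFP. None of the 8 passed edgeR's test, and at an unadjusted p under 0.05, 1 was higher in SSDS-GFP than in Control and 1 was lower in CSDS than in Control. The shares of all genes were 8.92% and 3.01% in the same order. The p53 target Phlda3 was at 0.48 ± 0.20 for SSDS-GFP over Control. Cdkn1a, the p53-induced cell cycle inhibitor and the gene lower in CSDS at an unadjusted p under 0.05, was measured at 5.64, 4.35 and 7.18 CPM in CSDS and 10.9, 34.8 and 5.71 CPM in Control. Control 2 stood far above the other 2 Control libraries, and Control 3 lay among the CSDS libraries.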

How the data were processed

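Libraries were made with the NEBNext Ultra RNA kit from total RNA, per the labels; the kit does not mark strand. The submitters' processing notes name HISAT2 2.0.5, featureCounts 1.5.0-p3, DESeq2 without a version and mm10. The annotation, the strand setting and the rule for reads with several matches are not given in the sources used here. The authors deposited unnormalized read counts, which are whole numbers, and the FPKM values were scaled by the authors for gene length and library size. Gene length in bases is deposited in the same tables. All columns were matched to a sample.

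Counts of 54532 genes were filtered with filterByExpr (minimum count 10, minimum total 15), scaled by TMM and fitted with edgeR 4.0.16 (R 4.3.3), with group as the factor and all 12 libraries in 1 fit; contrasts were 2-sided with Benjamini-Hochberg adjustment over 16915 genes at 0.05. CPM of single genes are of the TMM-scaled library, and the sums of cell type markers are CPM of the raw library total, without TMM. The sign ± gives the SD over 3 libraries for CPM and the SE for log2 fold changes. Subunit sums used raw counts of all members and carry no test. Coding length is the longest coding sequence per gene in GENCODE M21, which held all 83 IDs, 81 with the same coordinates. Genes were named by a rule: called members, the 4 smallest p per subunit and comparison, the 2 farthest above and below the median, the 3 highest and lowest FPKM per subunit, and a set of paralogs and members with other roles; of each other list, those with the smallest p. Some genes that this rule selects are not reported here. Members and lists were chosen with earlier results of these data known.

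Same-numbered SSDS-shACOT12 and SSDS-GFP libraries deviated together from their group means (correlations 0.196, 0.419 and 0.353 over genes). For CSDS with Control the values were -0.005, -0.013 and 0.047, and for SSDS-GFP with Control -0.063, -0.259 and -0.213. Fits with the replicate number as a block were run over all 12 libraries and over the libraries of each comparison alone. The block over 12 libraries gives a number the same effect in every group, although these correlations differed among the comparisons. The labels do not say what a number shares. Alternatives were DESeq2 1.42.0, limma 3.58.1 on log2 FPKM with 0.1 or 1 added, other scalings and filters, removal of the length trend (lowess span 0.3), subsets of libraries and the replicate block. The tests were tried on simulated data first.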

Additional observations from a re-analysis of the deposited data

How the results depend on the processing

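The median log2 fold change of the members kept its sign over 19 alternatives in SSDS-GFP against Control (0.27 to 0.55) and CSDS against Control (0.12 to 0.24), lowest after removal of the length trend in both. For SSDS-shACOT12 against SSDS-GFP it ran from -0.16 to 0.08. With the replicate block over 12 libraries the medians were -0.01 for SSDS-shACOT12 against SSDS-GFP, 0.39 for SSDS-GFP against Control and 0.20 for CSDS against Control, and the block changed no call. The medians with the block in each comparison alone lay within the ranges above and are not given singly. Calls depended more on the settings. In SSDS-GFP against Control the number of members called was 0 as reported, with 0.0946% of all genes called. It was 11 with no filter (1.85% of all genes) and 18 with DESeq2 (3.12%). When single libraries were left out it was 0 to 2, with 0.0866% of all genes called in the fit with 2. In the test of any difference it was 0 (0.0887% of all genes) and 14 with no filter (4.45%). When single libraries were left out it was 0 to 22, with 12.6% of all genes called in the fit with 22. In SSDS-shACOT12 against SSDS-GFP it was 0 (0% of all genes). When single libraries were left out it was 0 to 1, and the fit with 1 called 5.7% of all genes. The cause of these differences between settings was not tested. The large over small subunit log2 difference for SSDS-GFP minus Control was -0.028 from counts and 0.0024 from sums of FPKM. Over 11 alternatives, that from FPKM included, it ran from -0.045 to 0.0024, and the FPKM value was the highest. For 24 results, each a member in a comparison, 432 values under alternatives were compared. Of these, 417 kept direction and side of the threshold, 15 came to pass it and 0 reversed. The 24 results were those with the smallest p per subunit and comparison, so some members, such as Rpl39, entered in several comparisons. They were picked by p in the same data, so the lack of reversals says little about stability. Other members named above were not counted. Adding pseudogene counts to their member, and leaving out the 17 members with many such counts or shared exons, were chosen after seeing the data; the SSDS-GFP against Control median was then 0.41 and 0.42.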
